A study of Homo sapiens with 27 samples.

Results

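MM134 LTED-B was compared directly with MM134 LTED-E, gene by gene, in RNA-Seq counts. The comparison rests on the 3 libraries of each variant, 6 of the 27 libraries of the series, and on the 26061 of 60619 listed genes that passed the filter on low counts in MM134 cells. MM134 (MDA-MB-134-VI) is an estrogen receptor (ER)-positive human cell line of invasive lobular breast carcinoma. Both variants were grown out of this line by long-term estrogen deprivation (LTED), which is culture for months in IMEM with charcoal-stripped serum, a serum depleted of steroid hormones, and both were kept in this medium without any drug. They share the parental line and the medium, and differ in the outgrowth from which they came. The other MM134 groups, used here as reference levels, were parental cells deprived of hormone for 3 days and the variants LTED-A and LTED-D. The question is how far 2 estrogen-independent lines from the same parental cells differ from each other. Each variant is 1 outgrowth, and its 3 libraries are 3 wells seeded from it, so that the tests measure the spread between wells and do not speak for other outgrowths.

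Estrogen drives the growth of luminal breast cancer cells through ER, a ligand-activated transcription factor that works with FOXA1 and GATA3. Cells that grow without the ligand can do so with ER still active or along other routes, such as growth factor receptors or altered lipid metabolism. Cholesterol and fatty acid synthesis are controlled largely by the SREBP transcription factors, which are released from the endoplasmic reticulum when sterols are low.

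The libraries held 42051154 to 44018412 counts in LTED-B and 40460425 to 52502195 in LTED-E. Replicate 3 of LTED-B stood somewhat apart: the chi-square per degree of freedom over genes was 2.35 between replicates 1 and 2 and 9.15 and 10 against replicate 3, compared with 3.08 to 3.54 within LTED-E. Without this library 2460 genes were called instead of 2550. Structural RNAs (7SL, 7SK, RMRP and RPPH1) took 14% to 15.4% of the counts in LTED-B and 10.2% to 11.2% in LTED-E, and without them 2548 genes were called. The summed level of 10 luminal epithelial markers was 6628 to 6847 CPM (counts scaled to the TMM-adjusted library size) in LTED-B and 6657 to 6844 in LTED-E. Of 10 immune cell markers, 7 had at most 10 counts in every library of the 2 variants, and the summed level was 11.4 to 12.5 CPM in LTED-B and 20.5 to 22.5 in LTED-E. ITGAM, CD68 and LYZ, the 3 of these markers that passed the filter, made up most of both sums.

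LTED-B and LTED-E differed in 2550 genes (9.78% of those tested), defined as differentially expressed (DE) by a fold change above 1.5 and an adjusted p under 0.001 in the quasi-likelihood F-test of edgeR. Of these, 1517 genes (5.82%) were higher in LTED-B and 1033 (3.96%) in LTED-E. Protein-coding genes made up 2023 of the DE genes, from 15440 tested, and lncRNAs 299, from 5918 tested. Of the protein-coding genes, 1161 were called higher in LTED-B and 862 in LTED-E. The 3 LTED-B values did not overlap the 3 LTED-E values in any DE gene, as was also true of 12827 of all genes tested. Many differences were modest, with 1135 of the DE genes under 2-fold. At the other end, 528 exceeded 4-fold, 273 of them higher in LTED-B and 255 in LTED-E. Among genes with at least 1 CPM, 69 were over 10-fold higher in LTED-B and 61 in LTED-E. The median log2 fold change (LTED-B minus LTED-E) over all genes was 0.0049.

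**Figure D1:**
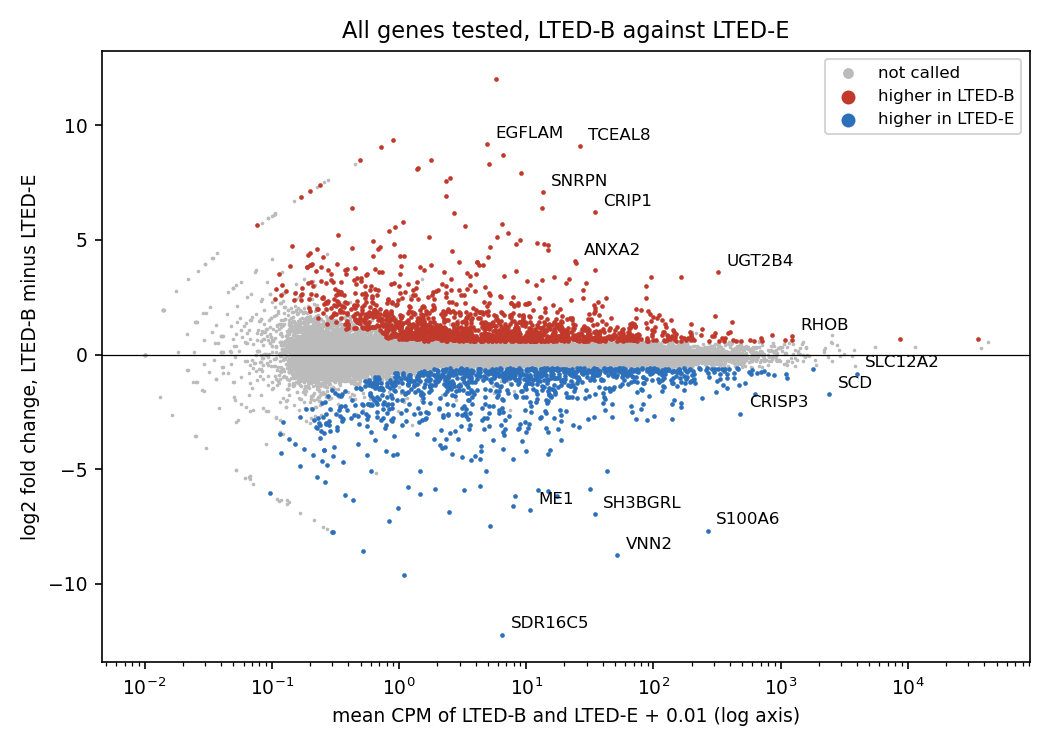
Log2 fold change (LTED-B minus LTED-E) of each gene tested against its mean level in the 2 variants in CPM + 0.01, on a log axis. Red points are the 1517 genes higher in LTED-B, blue points the 1033 genes higher in LTED-E, and grey points genes that were not called.

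The levels in the other MM134 groups place these differences. Of the 1517 genes higher in LTED-B, parental cells had a mean above both variants in 664, below both in 305 and between them in 548. In 302 of these genes LTED-E lay more than 1.5-fold below every other MM134 library, whereas LTED-B lay that far above every other library in only 41. Of the 1033 genes higher in LTED-E, parental cells lay below both variants in 527, above both in 180 and between them in 326. Here LTED-E stood more than 1.5-fold above every other MM134 library in 152 genes and LTED-B below every other in 86. LTED-E was thus the outlying variant in more of these genes than LTED-B in both directions (302 against 41, and 152 against 86). These are counts of group values, with no test between variants.

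Several genes were expressed in one variant and at or near 0 in the other. The gene with the largest fold change among protein-coding genes of at least 1 CPM higher in LTED-B was EGFLAM, which encodes pikachurin, a protein of the extracellular matrix. EGFLAM was at 10.3, 9.46 and 9.98 CPM in the LTED-B libraries and at 0, 0.0424 and 0 CPM in LTED-E, where only 2 counts were seen against 1250. The ratio was 689, with a counting interval of 190.5 to 5699 (95%, counting error only), and parental cells had a mean of 0.825 CPM.

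The small nuclear ribonucleoprotein gene SNRPN, part of an imprinted cluster on chromosome 15 that is normally read from the paternal copy, was at 27.8, 26.4 and 26.6 CPM in LTED-B and 0.222, 0.148 and 0.213 CPM in LTED-E (log2 fold change 7.10 ± 0.14 (SE), edgeR adjusted p = 1.44e-17). Parental cells (0.144), LTED-A (0.167) and LTED-D (0.133) were as low as LTED-E, so that LTED-B alone expressed it. Several other transcripts of this locus behaved alike, but not all. SNHG14, the long host RNA of the snoRNAs of the cluster, was at 24.4, 24.3 and 23.6 CPM in LTED-B and 2.27, 2.46 and 2.77 in LTED-E. PWAR5 was at 13.3, 13.5 and 12.2 CPM in LTED-B and at 0.0494, 0.0212 and 0.0194 CPM in LTED-E. SNURF, which overlaps SNRPN so that the split of reads between them is uncertain, had 180 counts in LTED-B and 0 in LTED-E, at least 66.3-fold higher. The lncRNA gene ENSG00000261069 was at 9.77, 10.4 and 10.2 CPM in LTED-B and 0, 0 and 0.0774 CPM in LTED-E. UBE3A, a ubiquitin ligase gene that overlaps the end of SNHG14, had a mean of 177 ± 2.09 CPM in LTED-B and 166 ± 2.88 CPM in LTED-E (SD, n = 3), with a log2 fold change of 0.10, and those of NIPA1 (-0.13) and HERC2 (-0.00) were also below the threshold. ENSG00000280234, which lies within the span of SNHG14, was not called either (-0.07, 4.03 CPM in LTED-B against 4.23 in LTED-E). Nor was NPAP1 (-0.19, 1.61 against 1.83 CPM). ENSG00000268531, farther toward the centromere, was higher in LTED-B (1.93 against 0.134 CPM on average).

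The 250 bases before the annotated SNURF start are shown because SNURF was at 0 CPM in each group but LTED-B. Counts were per gene, and the annotated SNRPN gene begins farther upstream. Which start was in use was not measured. The window lies at chr15:24954737-24954986 (GRCh38.p14, RefSeq, plus strand) and holds 12 CG pairs, marked in capitals, where the median over the windows of genes tested was 18. DNA methylation was not measured.
SNURF: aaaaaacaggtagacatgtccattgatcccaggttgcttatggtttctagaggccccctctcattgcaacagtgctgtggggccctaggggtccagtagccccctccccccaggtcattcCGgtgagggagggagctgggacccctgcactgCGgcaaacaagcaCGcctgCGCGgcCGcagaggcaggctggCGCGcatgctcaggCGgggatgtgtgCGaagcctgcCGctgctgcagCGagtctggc

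Other genes were lowest in LTED-E. TCEAL8, of the transcription elongation factor A-like family on the X chromosome, was at 51.2, 52.6 and 54.8 CPM in LTED-B and 0.0247, 0.0636 and 0.174 CPM in LTED-E (log2 fold change 9.11 ± 0.13 (SE), edgeR adjusted p = 3.08e-19). Its mean was 18.1 CPM in parental cells, 48.4 in LTED-A and 46.5 in LTED-D. Its neighbours BEX4 (0.12), TCEAL4 (0.10) and TCEAL3 (0.16) did not reach a 1.5-fold difference, while BEX1, a brain-expressed X-linked gene, was higher in LTED-B (1.36). CRIP1, a small LIM-domain protein, was at 67.3, 67.5 and 69.7 CPM in LTED-B and 0.816, 0.742 and 1.16 CPM in LTED-E, against 122 CPM in parental cells. ANXA2, a membrane-binding annexin, was at 46.5, 44.2 and 47.1 CPM in LTED-B and 3.19, 2.27 and 2.69 CPM in LTED-E, and was about as low in LTED-D (3.18).

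Further genes near 0 in LTED-E were CALCR, the calcitonin receptor, MAGEA1, a cancer-testis antigen, TXNRD3, a thioredoxin reductase, SERP2 and RIBC2. Except for RIBC2 (1.055 CPM or more in each other group), they were near 0 in other groups too. Parental cells had means of 0.0197 CPM for CALCR, 0.0689 for MAGEA1 and 0.0511 for TXNRD3. SERP2 was at 0.0033 CPM in LTED-A and 0.0094 in LTED-D. CALCR had 585 counts in LTED-B and 3 in LTED-E (ratio 215, counting interval 73.2 to 1046), and was higher still in LTED-D (12.9 CPM). MAGEA1 had 450 counts in LTED-B and 1 in LTED-E (ratio 496, interval 88.6 to 19650.0). B3GNT9, a glycosyltransferase, was at 25.8, 27.9 and 25.01 CPM in LTED-B and 0.395, 0.233 and 0.310 CPM in LTED-E. The lncRNAs with the largest differences after ENSG00000261069 were LINC03073 (4.32) and LINC02983 (4.05), which lie next to each other on chromosome 7.

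**Figure D2:**
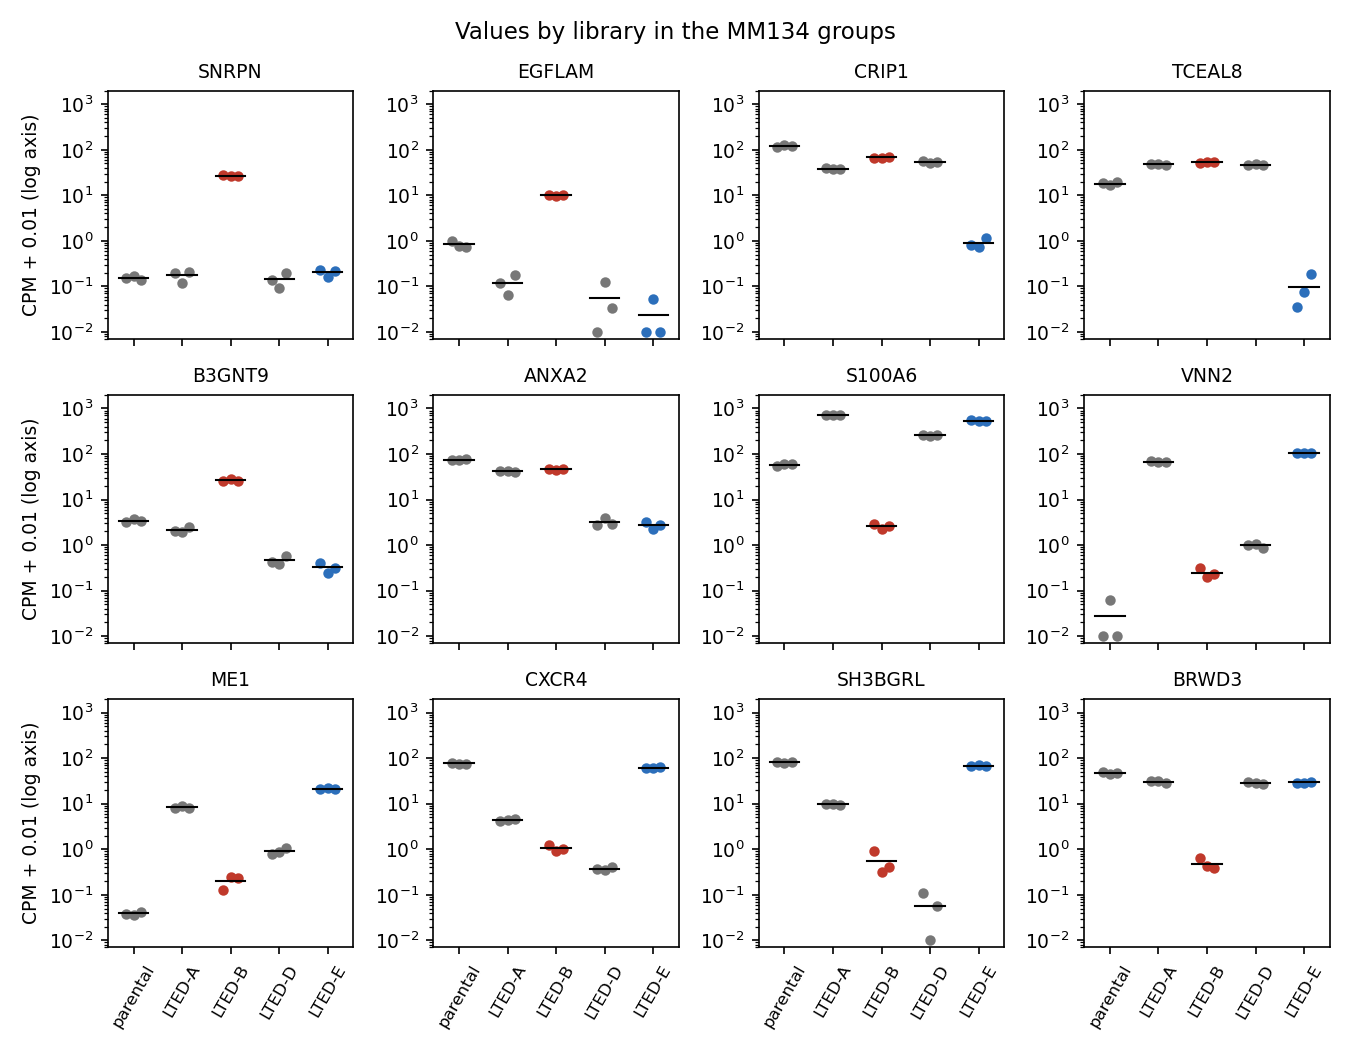
Level of 12 genes in each of the 15 MM134 libraries as CPM + 0.01 on a log axis, with each dot 1 library and each bar the group mean. SNRPN and EGFLAM are high in LTED-B (red), CRIP1 and TCEAL8 are low in LTED-E (blue), and S100A6 and BRWD3 are low in LTED-B.

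In the opposite direction, SDR16C5, a retinol dehydrogenase of the short-chain family, had 1792 counts in LTED-E and 0 in LTED-B, at least 545-fold higher. It was at 13.5, 13.7 and 11.6 CPM in the LTED-E libraries, and no other group had a mean above 0.109 CPM. VNN2, a vanin of the pantetheinase family, was at 0.302, 0.188 and 0.222 CPM in LTED-B and 102, 103 and 105 CPM in LTED-E (log2 fold change -8.75 ± 0.09 (SE), edgeR adjusted p = 5.72e-21). It was also high in LTED-A (67.9). S100A6, a calcium-binding protein, was at 2.90, 2.28 and 2.64 CPM in LTED-B and 547, 531 and 523 CPM in LTED-E (log2 fold change -7.68 ± 0.05 (SE), edgeR adjusted p = 1.33e-23). LTED-B was the low group of the MM134 cells for S100A6, since parental cells had 58.3 CPM, LTED-A 720.1 and LTED-D 256.

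ME1, the malic enzyme that supplies NADPH for lipid synthesis, was at 0.116, 0.235 and 0.222 CPM in LTED-B and 21.2, 21.9 and 20.8 CPM in LTED-E, a 112-fold difference, and near 0 in parental cells (0.0291). CCL20, a chemokine that attracts lymphocytes and dendritic cells, was at 0.116, 0.0469 and 0 CPM in LTED-B and 10.4, 9.54 and 10.98 CPM in LTED-E. MUC5AC, a gel-forming mucin, had 2 counts in LTED-B and 268 in LTED-E (ratio 122, interval 33.3 to 1008). The homeobox genes PRRX2 (1 count in LTED-B and 224 in LTED-E) and MEOX1 (log2 fold change -6.58) were likewise nearly absent from LTED-B. Parental cells were also near 0 for MUC5AC (0.0309 CPM), PRRX2 (0.0089) and MEOX1 (0.076). PRRX2 was at 0.0785 CPM in LTED-A and 0.0635 in LTED-D, and MUC5AC at 0.221 and 0.0171. Relative to parental cells, MEOX1 was at 2.09 in LTED-B, 5.97 in LTED-A, 57.4 in LTED-D and 203.3 in LTED-E. ANTXR1, a receptor that binds collagen, was at 0.325, 0.117 and 0.222 CPM in LTED-B and 15.9, 16.3 and 15.8 CPM in LTED-E, and at 0.219 to 0.365 CPM on average in the other groups. PNMT, which makes adrenaline, and B3GALNT1, which makes globoside, were low in LTED-B and no other group: PNMT was at 0.0464, 0.0469 and 0.0246 CPM in LTED-B against 7.47 in parental cells, and B3GALNT1 at 0.697, 0.469 and 0.246 against 27.1. Among lncRNAs, MIR3142HG and ENSG00000238279 had 0 counts in LTED-B and 298 and 143 in LTED-E, and LINC02541 had a log2 fold change of -5.73.

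A group of 3 neighbours on the X chromosome was nearly silent in LTED-B. SH3BGRL, a small adaptor-like protein, was at 0.929, 0.305 and 0.394 CPM in LTED-B and 67.5, 69.9 and 68.1 CPM in LTED-E (log2 fold change -6.96 ± 0.13 (SE), edgeR adjusted p = 1.56e-17), against 80.99 CPM in parental cells. HMGN5, a nucleosome-binding protein, was at 0, 0.0938 and 0.0246 CPM in LTED-B and 2.92, 2.63 and 3.08 CPM in LTED-E. BRWD3, a bromodomain protein, was at 0.627, 0.422 and 0.370 CPM in LTED-B and 29.1, 29.1 and 29.9 CPM in LTED-E, and at 28.2 CPM or more on average in each other group. SH3BGRL was also near 0 in LTED-D (0.0478), where BRWD3 was not low (28.2), and was at 9.8 CPM in LTED-A. HMGN5 averaged 0.268 CPM in LTED-D, against 1.10 in parental cells and 1.64 in LTED-A. The nearest genes on the 2 sides with a mean of at least 1 CPM over both variants were CYSLTR1 (-0.12) and RPS6KA6 (0.05). They did not differ beyond the threshold. Farther along the chromosome the direction varied. HDX, a homeobox gene, was higher in LTED-B (4.57, 4.83 and 4.51 against 1.28, 0.827 and 0.891 CPM), and ZNF711, a zinc-finger gene, was lower (1.51, 1.41 and 1.11 against 11.2, 11.5 and 11.2 CPM). SH3BGRL and HMGN5 are read in opposite directions from start sites whose windows overlap. The shared region is printed for that reason, as the 250 bases before the SH3BGRL start at chrX:81201852-81202101 (plus strand), with its 11 CG pairs in capitals.
SH3BGRL: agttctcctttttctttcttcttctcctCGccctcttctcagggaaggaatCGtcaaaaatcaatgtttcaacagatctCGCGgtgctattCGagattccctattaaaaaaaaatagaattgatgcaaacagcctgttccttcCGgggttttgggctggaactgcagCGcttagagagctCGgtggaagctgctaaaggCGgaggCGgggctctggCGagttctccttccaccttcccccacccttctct

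The estrogen-regulated genes did not move as one group. Of 26 members tested, 5 were higher in LTED-B and 3 in LTED-E, with a median log2 fold change of 0.14. ESR1, the gene of ER itself, was at 516, 549 and 533 CPM in LTED-B and 262, 266 and 266 CPM in LTED-E (log2 fold change 1.01 ± 0.03 (SE), edgeR adjusted p = 3.35e-15), on either side of the parental mean of 359.6. GATA3 was at 156, 161 and 168 CPM in LTED-B and 81.2, 77.2 and 84.3 CPM in LTED-E, with the parental mean (163) at the level of LTED-B. Higher in LTED-B were STC2, which encodes a secreted glycoprotein (17.4, 19.1 and 18.8 against 1.95, 1.80 and 2.23 CPM), BCL2, the inhibitor of apoptosis (8.91, 8.75 and 8.82 against 1.58, 1.53 and 1.34 CPM), AGR3 (1.53), SERPINA1 (1.43) and GREB1, a coactivator of ER (0.65). BCL2 was nonetheless far below parental cells (91.5) in both variants. Higher in LTED-E were AGR2, a disulfide isomerase (-1.03), the secreted ligand WNT4 (-0.95) and the trefoil peptide TFF1, at 540.4, 585 and 569 CPM in LTED-B and 983, 1043 and 1036 CPM in LTED-E. PGR, the progesterone receptor, was low in both variants (0.441, 0.610 and 0.715 and 0.124, 0.148 and 0.116 CPM) and was not called (edgeR adjusted p = 0.00226).

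Of 27 luminal transcription factors and receptors, 2 (ESR1 and GATA3) were higher in LTED-B and 4 in LTED-E, with a median of -0.27. Among the 4 were KLF4, at 44.6, 43.6 and 43.3 CPM in LTED-B and 98.5, 93.4 and 97.3 CPM in LTED-E, KLF5 (-0.83) and EHF (-0.66).

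The called genes of cholesterol synthesis were, with 1 exception, higher in LTED-E. Of 24 members tested, 14 were higher in LTED-E and 1 in LTED-B, 22 had a negative log2 fold change, and the median was -0.61, against 0.0049 for all genes. HMGCS1, which makes HMG-CoA for the mevalonate pathway, was at 139.8, 154 and 163 CPM in LTED-B and 480.2, 455 and 472 CPM in LTED-E (log2 fold change -1.62 ± 0.04 (SE), edgeR adjusted p = 1.18e-15). SQLE, the squalene epoxidase, was at 200.1, 204 and 200.3 CPM in LTED-B and 499, 508 and 492 CPM in LTED-E. MSMO1, which removes methyl groups from sterols, was at 82.6, 85.7 and 87.9 CPM in LTED-B and 203, 204 and 198 CPM in LTED-E, and STARD4, a sterol carrier, at 12.9, 11.9 and 12.1 and 26.3, 27.6 and 26.5 CPM. Smaller differences were found for ACAT2 (-0.90), INSIG1, which holds SREBP back (-0.78), and DHCR7, which makes the last step to cholesterol (-0.78). NPC1L1, a cholesterol absorption protein, was higher in LTED-B, at under 1 CPM (0.673, 0.587 and 0.862 against 0.148, 0.106 and 0.213). Parental cells had less HMGCS1 (91.8), SQLE (158) and MSMO1 (58.2) than either variant.

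The transcripts of the SREBP genes themselves differed little. SREBF1 was at 193, 195 and 182 CPM in LTED-B and 234, 219.9 and 230.2 CPM in LTED-E, and SREBF2 at 106, 105 and 104 and 143, 135 and 139 CPM, both under 1.5-fold. Among the 22 lipid regulators tested, ABCA1, the exporter of cellular cholesterol, was the only member higher in LTED-B, at 4.76, 4.53 and 4.58 CPM against 0.494, 0.466 and 0.465 CPM in LTED-E, and 5 were higher in LTED-E. The 5 were INSIG1, PPARA (-0.63), PPARG (-1.22), APOD (-1.64) and APOC1 (-2.19).

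Of 30 genes of fatty acid synthesis, desaturation and storage, 8 were higher in LTED-E and 3 in LTED-B, with a median of -0.15. SCD, the desaturase that makes oleic acid, was at 1102, 1144 and 1132 CPM in LTED-B and 3716, 3726 and 3707 CPM in LTED-E (log2 fold change -1.72 ± 0.03 (SE), edgeR adjusted p = 6.8e-18), against 468 in parental cells. FASN, the fatty acid synthase, was at 1417, 1459 and 1342 CPM in LTED-B and 2266, 2098 and 2187 CPM in LTED-E, and the desaturases FADS1 (-0.99) and FADS2 (-0.68) were also higher in LTED-E. Among genes of lipid storage, differences were larger for DGAT2 and PLIN2 only. DGAT1 (0.16), PLIN3 (0.10), PNPLA2 (0.20), PNPLA3 (-0.01), AGPAT2 (0.22), LPIN1 (0.36) and LPIN2 (0.17) were not called. DGAT2, which makes triglycerides, was at 4.99, 5.72 and 5.25 CPM in LTED-B and 47.97, 46.7 and 46.9 CPM in LTED-E, and PLIN2, a coat protein of lipid droplets, at 2.25, 1.83 and 1.85 and 12.3, 12.97 and 12.7 CPM. The 3 genes higher in LTED-B were SCD5 (0.998), ELOVL2 (0.63) and THRSP (0.96). ACLY (-0.50) and ACACA (-0.42), which supply the synthase, stayed under 1.5-fold. Of 27 genes of fatty acid oxidation and ketone metabolism, 3 were higher in LTED-B and 2 in LTED-E. OXCT1, which uses ketone bodies, was among the latter (-1.44).

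**Figure D3:**
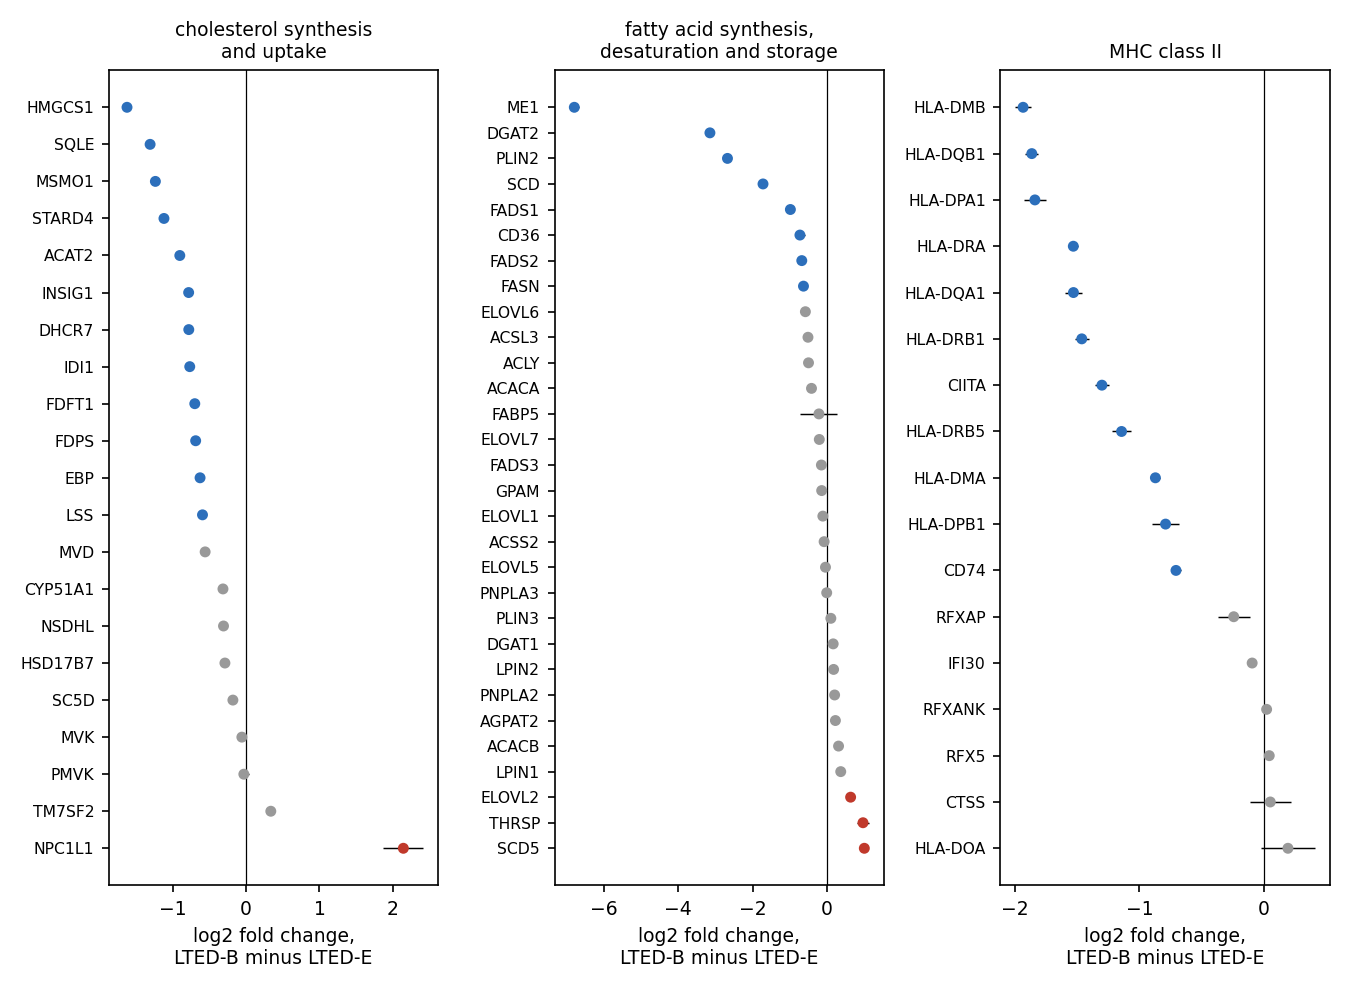
Log2 fold change (LTED-B minus LTED-E) with its SE for members tested of 3 gene lists, blue where the gene was called higher in LTED-E, red where called higher in LTED-B and grey where not called. Of the 21 cholesterol genes drawn 12 are blue, of the 30 fatty acid genes 8, and of the 17 MHC class II genes 11.

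MHC class II genes, which present peptides to CD4 T cells and are driven together by the coactivator CIITA, were higher in LTED-E. Of 17 members tested, 11 were higher in LTED-E and 0 in LTED-B, with a median of -0.87. CIITA was at 6.22, 5.75 and 5.42 CPM in LTED-B and 14.01, 14.6 and 14.3 CPM in LTED-E (log2 fold change -1.30 ± 0.06 (SE), edgeR adjusted p = 1.43e-12). HLA-DRA was at 15.7, 15.3 and 14.96 CPM in LTED-B and 43.7, 43.2 and 45.9 CPM in LTED-E, HLA-DQB1 at 9.31, 8.91 and 9.98 and 33.7, 34.5 and 34.6 CPM, and HLA-DMB, which helps load the peptide, at 5.25, 4.74 and 5.22 and 19.6, 19.7 and 18.9 CPM. The invariant chain CD74 was at 52.2, 53.5 and 51.8 CPM in LTED-B and 84.2, 82.8 and 90.01 CPM in LTED-E. LTED-A (HLA-DRA 135 CPM) and LTED-D (75.7 CPM) were above both, and parental cells (6.92 CPM) below both. The factors that bind these promoters, RFX5 (0.04), RFXANK (0.02) and RFXAP (-0.24), were not called. HLA genes are polymorphic and resemble each other, so the split of reads among them is uncertain. Beside them, ITGAM, an integrin of myeloid cells, was higher in LTED-E (-2.42) and CD68 higher in LTED-B (1.38), while PTPRC, the pan-leukocyte marker, had at most 8 counts in any of the 6 libraries. Of 17 genes of MHC class I and peptide loading, 3 were higher in LTED-E, HLA-E (-0.88), TAP1 (-0.67) and ERAP2 (-1.36), and 0 in LTED-B. Interferon-stimulated genes were split, with 7 of 32 higher in LTED-B, among them IFI6 (1.45), IFIT2 (1.35) and OASL (1.92), and 3 in LTED-E, IRF1 (-0.77), OAS2 (-1.32) and BST2 (-0.71).

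Promoter sequences of these 2 groups are shown because their members differed together. In the 250 bases before the RefSeq start sites, the CCAAT box, searched as ATTGG on either strand, was found in 16 of 18 cholesterol genes and in 11 of 14 MHC class II genes for which a window was given, against 40.1% of the 14097 genes tested with a window. The longer form CTGATTGG, which contains the shorter one, was in 6 of 18 and 5 of 14, against 5.97%. Cholesterol genes that were not called had the box as well, with 5 copies in MVK (-0.06) and in NSDHL (-0.31). In the MHC class II list, HLA-DOA (0.19), IFI30 (-0.09) and RFX5 (0.04) had it and were not called, RFX5 with the longer form. HLA-DPA1 (-1.84) was called and had neither form. The following windows are from GRCh38.p14 (RefSeq), with each ATTGG or its reverse complement in capitals: HMGCS1 at chr5:43313413-43313662 (minus strand), MSMO1 at chr4:165327419-165327668 (plus strand), HLA-DQB1 at chr6:32666658-32666907 (minus strand) and HLA-DRB1 at chr6:32589849-32590098 (minus strand). A match describes the sequence and is not a measured binding site.
HMGCS1: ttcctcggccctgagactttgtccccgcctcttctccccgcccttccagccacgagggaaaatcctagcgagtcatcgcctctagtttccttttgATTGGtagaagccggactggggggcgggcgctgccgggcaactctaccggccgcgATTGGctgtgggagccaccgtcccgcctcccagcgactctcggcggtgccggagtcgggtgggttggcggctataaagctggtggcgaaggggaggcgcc
MSMO1: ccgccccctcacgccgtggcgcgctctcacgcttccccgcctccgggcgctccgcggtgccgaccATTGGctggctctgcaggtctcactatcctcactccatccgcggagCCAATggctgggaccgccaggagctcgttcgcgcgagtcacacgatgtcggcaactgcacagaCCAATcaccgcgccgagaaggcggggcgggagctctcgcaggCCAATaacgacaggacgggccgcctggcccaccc
HLA-DQB1: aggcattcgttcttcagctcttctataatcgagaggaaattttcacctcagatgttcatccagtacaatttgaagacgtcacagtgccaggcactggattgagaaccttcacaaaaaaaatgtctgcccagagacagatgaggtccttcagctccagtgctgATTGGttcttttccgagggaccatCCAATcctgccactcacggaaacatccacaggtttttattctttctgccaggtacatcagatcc
HLA-DRB1: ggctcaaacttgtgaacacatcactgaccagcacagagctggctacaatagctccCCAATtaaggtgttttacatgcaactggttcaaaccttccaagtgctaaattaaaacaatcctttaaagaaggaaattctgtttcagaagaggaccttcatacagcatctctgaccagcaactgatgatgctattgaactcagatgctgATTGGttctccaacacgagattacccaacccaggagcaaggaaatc

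S100 proteins are small calcium-binding proteins, many of them encoded side by side on chromosome 1, and annexins bind membranes in the presence of calcium. Of 23 members of both families tested, 8 were higher in LTED-E, all of them S100 genes, and 6 in LTED-B, of which 4 were annexins. Next to S100A6, S100A8 was at 0.998, 1.10 and 0.936 CPM in LTED-B and 20.1, 17.4 and 19.3 CPM in LTED-E, and S100A9, its partner in calprotectin, at 0.650, 0.446 and 0.838 and 15.8, 13.8 and 15.9 CPM. S100A16 (-1.42) and S100A14 (-1.36) followed with smaller differences, and S100A13, the next gene, did not (-0.15). S100A10, which binds annexin A2, was in turn higher in LTED-B (9.29, 8.85 and 9.19 against 5.36, 4.37 and 4.49 CPM), as was ANXA2.

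Of 27 cytokines, receptors and members of STAT3 signalling tested, 5 were higher in each variant. IL1R1, the receptor for interleukin 1, was at 178, 170.3 and 179.9 CPM in LTED-B and 16.7, 16.4 and 17.2 CPM in LTED-E (log2 fold change 3.39 ± 0.03 (SE), edgeR adjusted p = 2.84e-21), and its soluble antagonist IL1RN was higher in LTED-B too (4.62). LIFR, the receptor for LIF, was at 3.39, 3.19 and 3.67 CPM in LTED-B and 0.445, 0.530 and 0.523 CPM in LTED-E, whereas the ligand LIF was higher in LTED-E, at about 1 CPM (0.989, 0.805 and 1.16). CXCR4, the receptor for CXCL12, was at 1.25, 0.891 and 1.01 CPM in LTED-B and 60.1, 62.1 and 64.3 CPM in LTED-E, near the parental level of 76.5. CXCL8 (-2.48) and CXCL16 (-0.89) were higher in LTED-E, and SOCS2 (0.95) and SOCS3 (1.16), feedback inhibitors of cytokine signalling, in LTED-B.

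Of 25 TGF-beta, BMP and ID genes tested, 8 were higher in LTED-E and 3 in LTED-B. The ligand BMP4 was at 8.47, 8.28 and 8.40 CPM in LTED-B and 23.5, 23.6 and 24.4 CPM in LTED-E, and ID1, a target of BMP signalling, at 8.38, 8.49 and 8.33 and 24.7, 23.2 and 25.6 CPM. ID3 (-1.41), ID4 (-5.09), SMAD6 (-0.98) and SMAD9 (-1.11) were also higher in LTED-E. BMPR1B, a BMP receptor (1.01), and BAMBI, a decoy receptor (0.92), were higher in LTED-B. Of 25 WNT ligands, receptors and targets, 6 were higher in LTED-E, with FZD8 at 29.9, 33.4 and 28.7 CPM in LTED-B and 80.9, 77.9 and 77.7 CPM in LTED-E, NKD1 (-1.82) and WNT5A (-2.71), and 4 in LTED-B, among them AXIN2 (0.92) and WNT7B (0.68). In the Notch pathway, 3 of 20 genes were higher in LTED-B, the receptor NOTCH3 (0.71), HEY2 (1.01) and DTX4 (0.59), and the ligands JAG1 (-1.53) and DLL1 (-1.04) were higher in LTED-E.

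Among growth factor receptors, FGFR1, which is amplified in many lobular carcinomas, was at 1072, 1101 and 1062 CPM in LTED-B and 1356, 1358 and 1381 CPM in LTED-E, under 1.5-fold, and both variants were below parental cells (2257). Of 20 FGF genes tested, FGFR4 (0.59) and FGF13 (1.89) were higher in LTED-B, and FGFR3 (-1.03) and the feedback and target genes SPRY4 (-1.11) and ETV5 (-1.40) in LTED-E. Of 12 ERBB receptors and ligands, ERBB2 (16.8, 16.1 and 15.7 against 8.92, 7.65 and 8.23 CPM) and ERRFI1 (0.69) were higher in LTED-B, and EGF (-1.003) and TGFA (-0.59) in LTED-E. TGFA was not called without replicate 2 of LTED-B (-0.52) or without replicate 1 of LTED-E (-0.53). Of 12 IGF genes, 4 were higher in LTED-B, with the adaptor IRS1 at 21.3, 21.6 and 21.3 CPM in LTED-B and 8.97, 8.62 and 9.31 CPM in LTED-E, and 2 in LTED-E, IRS4 (-1.40) and IGFBP5 (-2.31). Of 23 PI3K, AKT and mTOR genes, 2 were higher in LTED-E and 3 in LTED-B, 5 in all, against 3 in all without replicate 2 of LTED-E. PIK3R3, a regulatory subunit of PI3K, was at 127, 126 and 138 CPM in LTED-B and 289, 276 and 279 CPM in LTED-E. Of 22 genes of the amplified regions of chromosomes 8 and 11, the chloride channel ANO1 was higher in LTED-B (2.15), and ZNF703 (-1.19), TACC1 (-1.24) and PLEKHA2 (-0.85) in LTED-E. CCND1, of the same list, did not reach 1.5-fold (-0.48).

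Enzymes that act on steroids and drugs differed gene by gene. Of 17 genes of steroid synthesis and inactivation, 4 were higher in LTED-E and 2 in LTED-B. AKR1C2, a ketosteroid reductase, was at 0.255, 0.422 and 0.394 CPM in LTED-B and 8.30, 8.50 and 8.17 CPM in LTED-E, and AKR1C3 at 0.116, 0 and 0.123 and 1.28, 1.40 and 1.80 CPM. AKR1C1 (-1.38) lost its call without replicate 3 of LTED-B, without replicate 1 or 3 of LTED-E (-1.29 and -1.35) and in the 6 libraries alone, and the 3 genes are near-identical copies whose reads are hard to assign. UGT2B4, which couples glucuronic acid to bile acids and other lipids, was at 589.8, 585 and 619 CPM in LTED-B and 49.2, 48.4 and 50.5 CPM in LTED-E (log2 fold change 3.60 ± 0.03 (SE), edgeR adjusted p = 1.58e-21), against 0.562 in parental cells. UGT2B15, which inactivates androgens, was also higher in LTED-B (2.23), with the same reservation about paralogs. Of 30 genes of glutathione and drug metabolism, 7 were higher in LTED-B and 5 in LTED-E, among the latter NQO1 (-0.84) and SLC7A11, the cystine transporter, at 6.36, 6.45 and 6.11 CPM in LTED-B and 35.8, 35.7 and 34.1 CPM in LTED-E.

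Of 22 amino acid transporters, SLC7A11 was the only one higher in LTED-E, and 3 were higher in LTED-B. SLC7A8, which carries large neutral amino acids, was at 64.7, 63.1 and 66.1 CPM in LTED-B and 5.24, 4.81 and 5.15 CPM in LTED-E, and the glutamate transporter SLC1A2 at 55.2, 56.9 and 56.7 and 12.7, 14.8 and 14.1 CPM. Of 22 ABC transporters, 5 were higher in LTED-B and 1, ABCC11 (-1.02), in LTED-E. ABCC8, the sulfonylurea receptor, was at 21.5, 21.8 and 20.01 CPM in LTED-B and 2.87, 2.16 and 2.77 CPM in LTED-E, and KCNJ11, the channel it forms with ABCC8 and its neighbour on chromosome 11, at 42.1, 42.1 and 41.4 and 19.1, 17.5 and 19.3 CPM. Both were lower in the 2 variants than in parental cells (79.4 and 50.8 CPM). In all, 7 of 24 potassium channels were higher in LTED-B and 2 in LTED-E. Of 19 neuronal and neuroendocrine genes, 8 were higher in LTED-B and 0 in LTED-E, with a median of 0.44. SYT1, a calcium sensor of vesicle release, was at 60.99, 64.5 and 68.8 CPM in LTED-B and 14.3, 14.6 and 15.8 CPM in LTED-E. INSM1, a zinc-finger factor of neuroendocrine cells, was another of the 8 (1.46).

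Of 18 BCL2 family genes, 6 were higher in LTED-B and 0 in LTED-E. Beside BCL2 itself, which protects cells from apoptosis, these were the promoters of apoptosis BMF (18.97, 21.3 and 19.9 CPM in LTED-B and 7.44, 8.22 and 7.80 CPM in LTED-E), BBC3 (0.75), HRK (0.68), BIK (0.62) and BAD (0.65). Proliferation genes mostly had small negative log2 fold changes that did not reach the threshold. All 32 DNA replication and E2F targets had a negative log2 fold change (median -0.33), but only RRM2 (-0.92), CCNE1 (-0.84) and MCM10 (-0.67) were called. Of 30 mitotic genes, 27 were below 0 and only MKI67 was called, at 233, 213 and 217 CPM in LTED-B and 372, 367 and 390.2 CPM in LTED-E. Of 16 G1 cyclins, CDKs and inhibitors, CDKN1A (-1.52) and CDKN2A (-0.67) were higher in LTED-E. Of 26 replication-dependent histones, H1-3 alone was called (0.71). None of 29 DNA and histone methylation enzymes and none of 13 mitochondrially encoded genes was called by edgeR, and their medians were -0.07 and 0.06. Of 32 nuclear genes of oxidative phosphorylation, 27 were below 0 and NDUFV2 was called (-0.64).

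Adhesion and matrix lists, and the lists after them, also held called genes. Over all genes tested, 5.82% were higher in LTED-B and 3.96% in LTED-E. Each keratin share (8.33%) was 1 gene of 12, whereas 21.4% of the cadherin, catenin and junction genes were higher in LTED-B. Of 28 cadherins, catenins and junction genes, 6 were higher in LTED-B and 2 in LTED-E. CDH2, N-cadherin, was at 7.01, 7.01 and 6.75 CPM in LTED-B and 1.04, 1.02 and 0.987 CPM in LTED-E, both far under the parental 52.4, while CDH1, E-cadherin, which lobular carcinomas often lose, was at 12.2, 10.98 and 10.6 and 9.12, 9.07 and 8.32 CPM and was not called. Of 12 EMT regulators and mesenchymal genes, 4 were higher in LTED-B, with VIM at 134, 138 and 137 CPM in LTED-B and 65.2, 64.5 and 67.9 CPM in LTED-E, and 3 in LTED-E, among them ZEB1 (-0.90). Of 35 collagens, laminins and integrins, 7 were higher in LTED-B, with LAMB3 at 13.8, 13.2 and 15.1 CPM in LTED-B and 3.31, 2.71 and 3.39 CPM in LTED-E, and 4 in LTED-E, all of them integrins, with ITGB4 at 9.01, 8.02 and 7.12 and 21.9, 21.4 and 23.5 CPM. Of 12 keratins, KRT23 (1.61) was higher in LTED-B and KRT7 (-0.65) in LTED-E. Of 30 genes of glycolysis and hypoxia, 5 were higher in LTED-B, among them SLC2A1, the glucose transporter (0.66), and HK2 (0.65), and 3 in LTED-E, ENO1 (-0.87), EGLN3 (-1.51) and ADM (-0.65). Of 21 AP-1 and immediate early genes, MYC (1.42, 1.17 and 1.38 against 0.346, 0.297 and 0.194 CPM), EGR3 (1.27) and KLF2 (0.59) were higher in LTED-B, and IER3 (1.76, 1.67 and 1.73 against 18.02, 18.4 and 17.8 CPM) and NR4A1 (-0.83) in LTED-E. Of 26 genes of the unfolded protein and integrated stress response, TRIB3 (-0.73) and CEBPB (-0.61) were higher in LTED-E, and without replicate 3 of LTED-E only 1 of the 2 was called, with CEBPB at -0.57. Of 7 HOX genes tested, 3 of the HOXC cluster were higher in LTED-B, with HOXC4 at 1.41, and of 3 cancer-testis genes only MAGEA1. The 8 basal markers had summed levels of 9.31 to 10.4 CPM in LTED-B and 9.81 to 10.4 CPM in LTED-E. The 10 fibroblast and endothelial markers had summed levels of 14.8 to 15.1 CPM in LTED-B and 11.7 to 12 CPM in LTED-E. COL1A1 made up most of both sums of these markers (means of 11.7 and 7.06 CPM). Of the 7 tested, COL1A1 (0.73) and VWF (1.83), which lost its call without replicate 1 or 2 of LTED-B or replicate 1 or 3 of LTED-E (1.60 to 1.89), were higher in LTED-B and PECAM1 (-1.21) in LTED-E.

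**Figure D4:**
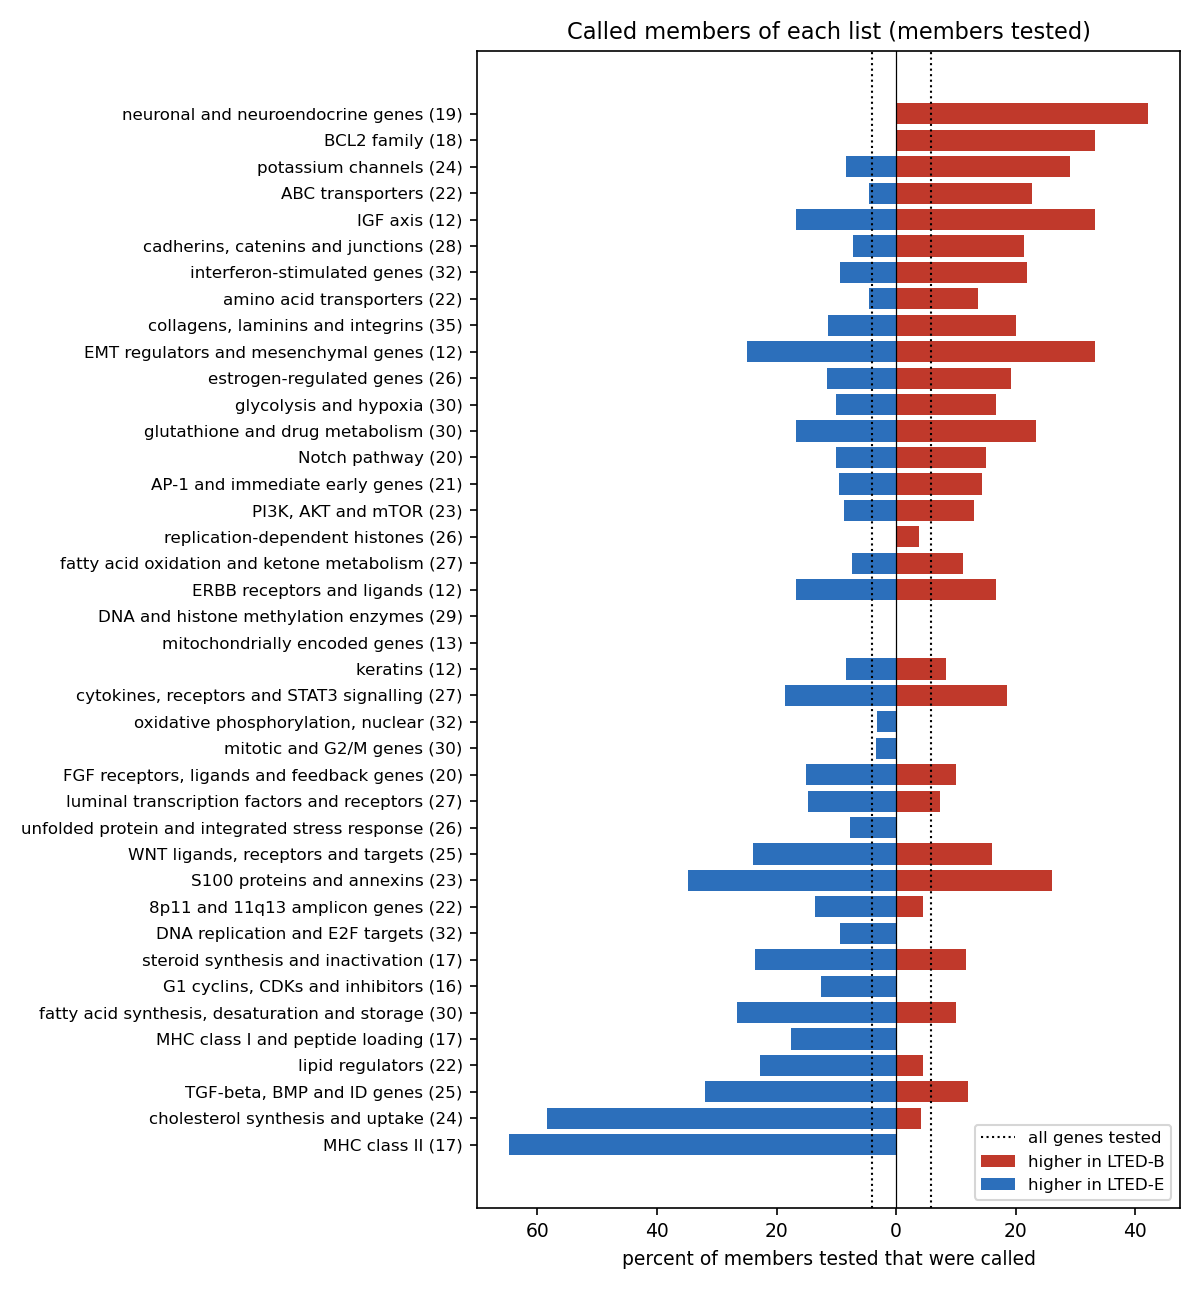
Percent of the members tested of each list with at least 10 members tested (number in brackets) that were called higher in LTED-B (red, right) or in LTED-E (blue, left), ordered by the difference. Dotted lines mark the shares of all genes tested of any biotype, 5.82% and 3.96%, and MHC class II and cholesterol synthesis stand at the LTED-E end. Protein-coding genes were called more often, with 1161 of 15440 higher in LTED-B and 862 in LTED-E.

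By difference in CPM rather than by fold, the largest protein-coding DE genes higher in LTED-B were RHOB, a small GTPase (1573, 1606 and 1542 CPM in LTED-B and 899, 905 and 922 CPM in LTED-E), UGT2B4, the ribosomal protein gene RPL3 (1479, 1474 and 1549 and 992, 947 and 982 CPM), AMBP, a plasma protein precursor (1070.0, 1117 and 1117 and 582, 634 and 594 CPM), the ferritin heavy chain FTH1 (0.65) and CLSTN2, a calsyntenin (1.45). AMBP had been at 9.39 CPM in parental cells. Those higher in LTED-E were SCD, FASN, SLC12A2, a sodium, potassium and chloride cotransporter (2818, 2869 and 2903 CPM in LTED-B and 5061, 5075 and 5134 CPM in LTED-E), ASPH, an aspartate hydroxylase (-1.005), CRISP3, a secreted cysteine-rich protein (136, 140.2 and 142 and 825, 827 and 832 CPM), and SYCP2, a protein of the synaptonemal complex (288, 298 and 286 and 970.4, 973 and 964 CPM). CRISP3 was at 834 CPM in LTED-A but at 17.1 in LTED-D and under 1 in parental cells. RPL3 belongs to a group chosen after its values were seen. Of 77 cytosolic ribosomal protein genes, 72 had a positive log2 fold change with a median of 0.24, but only 3 were called higher in LTED-B and 1, RPS12 (-0.78), in LTED-E.

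Shifts of whole chromosome regions were looked for in windows of 40 neighbouring genes. The median log2 fold change of the 546 windows ran from -0.26 to 0.35, and 0 windows lay more than 0.5 from 0. Chromosome medians went from -0.16 on chromosome 21 to 0.06 on chromosome 19. The highest windows lay on the short arm of chromosome 2, where the 6 overlapping windows from FAM110C to CYP1B1 (chr2:38814-38109902 of GRCh38) had medians of 0.26, 0.12, 0.27, 0.35, 0.29 and 0.18. The median of the highest, from TP53I3 to NRBP1, had an SD of 0.0231 over the 9 pairs of 1 LTED-B and 1 LTED-E library, and was 0.43 above parental cells in LTED-B and 0.10 in LTED-E. The lowest were 2 overlapping windows on the long arm of chromosome 8, from KLF10 to CHRAC1, with medians of -0.24 and -0.26. In windows of 20 genes, 3 lay more than 0.5 from 0. One, on chromosome 6 (chr6:32184733-33272047 of GRCh38), held the MHC class II genes and had a median of -0.55. The other 2 overlapped on chromosome 17, with medians of -0.79 and -0.76. There, the 16 genes with at least 5 CPM from LSM12 to EFTUD2 (chr17:44034328-44899445) had a median of -0.85, and 13 of them were called higher in LTED-E. This interval was bounded after the values were seen and carries no test.

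Relative to parental cells, the median over the 16 genes was 0.545 in LTED-B, 1.05 in LTED-A, 0.996 in LTED-D and 1.05 in LTED-E. In the 12 genes on the flanks it was 0.99 in LTED-B and 0.923 in LTED-E. SLC25A39, a mitochondrial carrier, was at 73.3, 76.3 and 70.8 CPM in LTED-B and 159, 157 and 161 CPM in LTED-E, against 146 in parental cells. EFTUD2, a spliceosomal GTPase, was at 49.5, 50.9 and 52.3 CPM in LTED-B and 118, 118 and 121 CPM in LTED-E, and UBTF, a factor for rRNA transcription, at 84.1, 87.4 and 86.3 and 148, 143 and 147 CPM. Inside the stretch HDAC5 (0.07), G6PC3 (-0.50) and FAM171A2 (-0.33) were not called. Just outside it, TMEM101 (0.19) before LSM12 and KIF18B (-0.57) and NMT1 (-0.21) after EFTUD2 were not called either. DNA copy number was not measured.

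**Figure D5:**
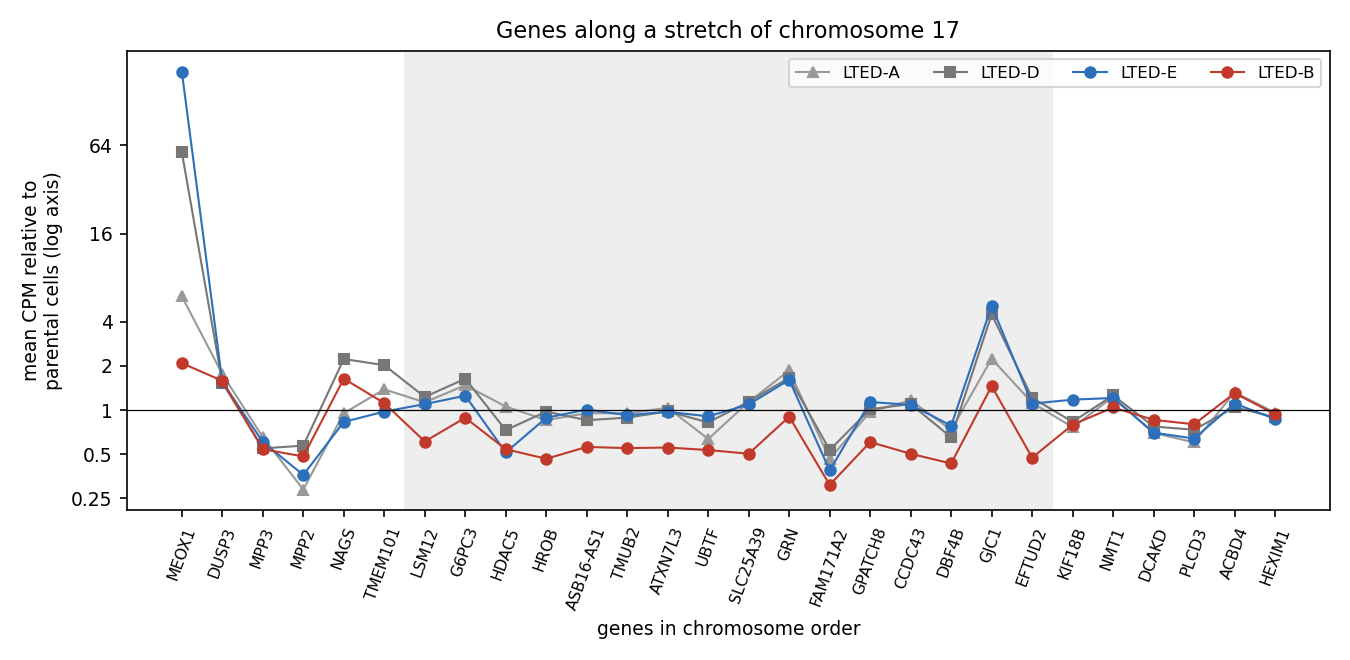
Mean CPM of each variant relative to parental cells, on a log axis, for genes in chromosome order, with the 16 genes from LSM12 to EFTUD2 shaded. LTED-B (red) lies lowest in 15 of the 16 shaded genes, at a median of 0.545, and LTED-E (blue) at 1.05.

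Smaller runs were listed as 4 or more neighbouring genes of at least 1 CPM that were DE in the same direction, a definition added after the data were seen. There were 24 such runs with 113 of the 2082 DE genes in the ordered set, 13 of them higher in LTED-B and 11 in LTED-E. The longest had 7 genes, on chromosome 1 (the S100 genes) and on chromosome 17 (HROB to UBTF and beyond). Runs higher in LTED-B also held the SERPINA genes of chromosome 14, with SERPINA6, SERPINA1, SERPINA5 and SERPINA3 and a median log2 fold change of 3, ESR1 with its neighbours CCDC170 (2.40), ARMT1 (1.36) and RMND1 (1.18) on chromosome 6, the protocadherins PCDHA7 to PCDHA12, which share exons, and ABCC8 with KCNJ11. Runs higher in LTED-E held the HLA-DR and HLA-DQ genes and AKR1C2 with AKR1C3. ESR1 thus stood within a run of 5 genes that were all higher in LTED-B, with a median of 1.18.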

How the data were processed

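RNA was sequenced from stranded total RNA libraries of MM134 and SUM44 cells, and 3 wells each of MM134 LTED-B and LTED-E were compared here. With Salmon 0.6.0, hg38 and the genes of Ensembl release 82, the authors obtained estimated counts for each gene and deposited them without scaling for library size or gene length. The strand setting and trimming are not given in the sources used here, so reads of overlapping genes and near-identical copies may be split wrongly.

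Counts were rounded to whole numbers (changing a value by at most 0.5). Symbols, positions and biotypes came from GENCODE on GRCh38 by Ensembl ID (56434 of 60619 IDs found). All 15 MM134 libraries entered 1 fit (filterByExpr, TMM, quasi-likelihood F-test of edgeR 4.0.16 in R 4.3.3, two-sided, Benjamini-Hochberg adjustment over the 26061 genes tested), so that the other groups add to the estimate of spread. DE genes had a fold change above 1.5 and an adjusted p under 0.001, thresholds taken from the study. CPM values use TMM library sizes. Where a group had 0 counts, the fold was computed against a floor of 3 counts over the group, and with 1 to 3 counts a 95% counting interval of the ratio is given. Intervals and floors cover counting error only. On simulated data (25317 genes, 191 of them changed) the test recovered 60 of 102 genes changed 2-fold and 67 of 89 changed 4-fold, with 0 false calls. The simulated counts were drawn from the same model that the test fits. Their false calls therefore do not measure those in the real libraries.

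The gene lists (46) and the comparison were chosen with earlier results of these data known, so their counts are descriptions. Genes named are, by a rule, the 12 protein-coding genes with the largest log2 fold change and the 6 with the largest CPM difference in each direction, the 3 lncRNAs in each direction, and from each list the first gene and up to 4 DE members with the largest fold change. Some genes that the rule names are not reported here, and the counts of their lists include them. Other genes were named after their values were seen, as further called members of a list, neighbours of such genes or genes of a pathway described. Windows along chromosomes took 40 genes, each averaging 5 CPM or more over both variants, in steps of 20 genes. Whole chromosomes were summarised in place of chromosome arms. Promoter windows came from RefSeq (GRCh38.p14), for 14097 of the genes tested. No library of the 2 variants was a duplicate of another. Alternatives were DESeq2 1.42.0, RLE size factors, other filters and thresholds, glmTreat, the 6 libraries alone, thinned counts, a replicate block and each library left out. The SUM44 libraries, microarray data and qPCR data were not analysed here. Python 3.11.15, pandas 2.3.3, numpy 2.4.6, scipy 1.17.1 and matplotlib 3.10.9 were used.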

Additional observations from a re-analysis of the deposited data

How the results depend on the processing

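The 2550 DE genes (1517 higher in LTED-B, 1033 in LTED-E) stayed within 1.5 times under DESeq2 (2458), RLE size factors (2550), other filters (2221 to 2744), the 6 libraries alone (2318), thinned counts (2281) and an adjusted p under 0.05 (3681). The thresholds moved them most: 1415 genes (809 and 606) passed a 2-fold minimum, 6470 (3213 and 3257) no minimum, and 1314 (717 and 597) glmTreat against 1.5-fold. Leaving out 1 library gave 2336 to 2460 DE genes, 1351 to 1441 higher in LTED-B and 962 to 1019 in LTED-E. The wells carry numbers, but same-numbered deviations did not go together (correlations of -0.279, 0.154 and -0.149), so the numbers do not pair them, and a replicate block gave 2083 genes with 6 libraries (1200 and 883) and 2480 with 15. The window with the largest median was at 0.35 with 40 genes, 0.28 with 80, -0.79 with 20 and -0.41 with a mean of at least 1 CPM, and 0.34 to 0.36 with 1 library left out. These are different regions: the windows of 40 and 80 genes lie on chromosome 2, and the other 2 on chromosome 17 and overlap the stretch from LSM12 to EFTUD2. No named gene changed sign in 1844 refits of 205 genes, and 19 lost the call, all for TGFA, AKR1C1, CEBPB, KCND3, HOXC13, PIK3R2 or VWF. Of 368 refits of lists, 2 lost over 1.5 times of their calls: the stress response list without LTED-E replicate 3 (2 to 1) and the PI3K list without LTED-E replicate 2 (5 to 3). Low counts limit precision, since 1 count can move the fold of a gene near 0.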
